A study of Mus musculus with 24 samples.

Results

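The 10 genes followed here in whole-liver RNA mark Kupffer cells, the resident macrophages of the liver: Marco, Vsig4, Clec4f, Cd5l, Folr2, Timd4, Mpeg1, Adgre1, Csf1r and Cd163. They were taken by gene symbol from the non-normalized probe table, which holds 17 probes for these 10 genes among 45281 probes in all. Male C57BL/6J mice aged 12 weeks were lean controls or diet-induced obese animals from the same supplier, kept on that supplier's formulations, and livers were snap frozen 6 h after surgery. Surgery was a sham operation (a midline incision with handling of the liver), removal of 70% of the liver, or removal of 80%. All 6 groups thus share the incision and handling, and the labels name no allele or transgene. Each of the 6 diet and surgery groups had 4 arrays, 24 in all.

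Kupffer cells line the liver sinusoids and take up bacteria, dying cells, complement-coated particles and haemoglobin from portal blood. Their survival depends on the CSF1 receptor, and their identity on signals from the endothelial and stellate cells beside them. After partial hepatectomy the remaining macrophages are known as a source of cytokines that prepare hepatocytes to divide. In whole-liver RNA, fewer Kupffer cells and less RNA of a gene per cell cannot be told apart.

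Of the 10 genes, 9 could be tested. The single Cd5l probe was detected on 0 of 24 arrays, so Cd5l, a secreted scavenger protein of macrophages, has no measure here. Detection means a detection p under 0.05, and a probe entered the tests when it was detected on at least 4 arrays, as 12 of the 17 probes were. Besides Cd5l, the second probes of Mpeg1, Csf1r and Cd163 were detected on 0 arrays and the third Adgre1 probe on 1. The brightest probe stands for each gene, and Clec4f, Folr2 and Adgre1 each had a second probe that passed. Marco was detected on 23 arrays, all but obese sham array 2, and the other 8 tested genes on all 24.

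Values are log2 intensities after background correction and quantile normalization, so 1 unit is a doubling, and levels are compared between arrays for 1 probe, never between probes. A change was called when its adjusted p from limma, over 10765 genes, was under 0.05. The labels call the arrays of a group replicates. Each p-value rests on the spread within groups, estimated per gene from all 6 groups together and moderated by limma over all genes. Median intensity per array was 63.5 to 75.4, detected probes numbered 15316 to 17463, and precision is limited by 4 arrays per group. The fourth lean 70% array stood apart from its group in these genes, so results that rest on it are given with and without it. The arrays lay on 4 slides, and slide and group cannot be told apart for lean 80% against lean sham, either obese resection against obese sham, 80% against 70% in lean mice, obese against lean at 70%, or the interaction of diet with the 70% resection.

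Marco, a scavenger receptor that binds bacteria and particles, rose most. In lean mice it read log2 5.18, 5.08, 5.33 and 5.37 after sham surgery, 7.55, 7.31, 7.32 and 5.78 after the 70% resection, and 4.98, 5.81, 6.18 and 6.59 after the 80% resection. In obese mice it read 5.44, 4.72, 5.44 and 5.41 after sham surgery, 6.04, 6.12, 5.41 and 5.36 after 70%, and 5.98, 5.98, 6.41 and 5.91 after 80%. Every lean 70% array lay above every lean sham array, and every obese 80% array above every obese sham array, while the lean 80% and obese 70% arrays overlapped with sham. Marco rose by log2 1.75 after lean 70% resection (SE 0.32, adjusted p = 6.37e-05, limma, n = 4 against 4) and by 0.82 after obese 80% (SE 0.32, adjusted p = 0.0321). The obese 80% call was lost without obese sham array 2 (adjusted p = 0.118) or obese 80% array 3 (adjusted p = 0.0938). The changes after lean 80%, 0.65 (adjusted p = 0.0855), and obese 70%, 0.48 (adjusted p = 0.219), did not pass. The sham values lay near the lowest log2 at which a probe was detected, 4.73 to 4.92 by array, so the size of the rise depends on the background correction. On the authors' deposited log2 values, which have none, Marco was higher by 1.06 after lean 70% (adjusted p = 5.95e-05) and by 0.42 after obese 80% (adjusted p = 0.0664).

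Cd163, the receptor that clears haptoglobin-bound haemoglobin, was the other gene with a called rise in both diets. It read log2 8.40, 8.04, 8.20 and 7.50 after lean sham surgery, 9.30, 9.33, 9.43 and 7.99 after lean 70%, and 8.13, 8.32, 8.38 and 8.14 after lean 80%. In obese mice it read 8.39, 8.04, 8.03 and 7.94 after sham surgery, 8.84, 8.64, 8.64 and 8.49 after 70%, and 8.46, 8.50, 8.24 and 8.25 after 80%. All obese 70% arrays lay above all obese sham arrays, whereas the lean 70% arrays overlapped with lean sham through array 4 alone. Cd163 rose by 0.98 after lean 70% (SE 0.22, adjusted p = 0.000788) and by 0.55 after obese 70% (SE 0.22, adjusted p = 0.045). The obese call was lost (adjusted p from 0.0502 to 0.109) on leaving out any 1 of 11 arrays, which were lean sham 2, lean 80% 2, obese sham 2, 3 and 4, obese 70% 1, 2 and 3, and obese 80% 1, 3 and 4. Its differences of 0.21 after lean 80% and 0.26 after obese 80% did not pass (adjusted p = 0.448 and 0.343).

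Vsig4 is a complement receptor with which Kupffer cells catch C3-coated bacteria from the flowing blood. It read log2 10.14, 10.30, 10.63 and 9.71 after lean sham surgery, 10.12, 10.77, 10.65 and 8.88 after lean 70%, and 9.01, 9.25, 8.65 and 9.16 after lean 80%. The obese values were 10.39, 9.88, 10.01 and 9.68 after sham surgery, 9.37, 9.61, 9.63 and 9.25 after 70%, and 9.89, 9.41, 9.28 and 8.71 after 80%. All lean 80% arrays lay below all lean sham arrays and all obese 70% arrays below all obese sham arrays, while the lean 70% arrays spanned more than the lean sham range. Vsig4 fell by 1.18 after lean 80% (SE 0.30, adjusted p = 0.00169), the largest fall among the 9 genes in any resection against sham. The differences of -0.53 after obese 70% (adjusted p = 0.15) and -0.67 after obese 80% (adjusted p = 0.0615) did not pass, nor did -0.09 after lean 70% (adjusted p = 0.832).

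Csf1r, the receptor for the macrophage growth factors CSF1 and IL-34, was the member whose fall was called in 3 of the 4 resections. In lean mice it read log2 8.0, 8.17, 8.37 and 7.77 after sham surgery, 8.05, 8.77, 8.48 and 7.22 after 70%, and 7.33, 7.56, 6.96 and 7.32 after 80%. In obese mice it read 8.20, 7.90, 8.11 and 7.94 after sham surgery, 7.34, 7.42, 7.35 and 7.04 after 70%, and 7.85, 7.33, 7.44 and 7.18 after 80%. The lean 80%, obese 70% and obese 80% arrays all lay below the sham arrays of their diet. Csf1r fell by 0.78 after lean 80% (SE 0.22, adjusted p = 0.00442), by 0.75 after obese 70% (SE 0.22, adjusted p = 0.00759) and by 0.59 after obese 80% (SE 0.22, adjusted p = 0.029). The obese 80% call was lost (adjusted p from 0.0534 to 0.0907) without obese sham array 1 or 3 or obese 80% array 2, 3 or 4. After lean 70% the difference was 0.05 (adjusted p = 0.866), and it was -0.01 under upper-quartile scaling.

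Adgre1, which encodes the macrophage surface protein F4/80, fell after obese 70%. It read log2 8.99, 8.78, 8.95 and 8.46 after lean sham surgery, 9.20, 9.69, 9.55 and 8.21 after lean 70%, and 8.51, 8.51, 8.18 and 8.35 after lean 80%. In obese mice it read 8.93, 8.74, 9.14 and 8.75 after sham surgery, 8.37, 8.32, 8.21 and 8.02 after 70%, and 8.95, 8.12, 8.48 and 8.49 after 80%. The obese 70% arrays all lay below the obese sham arrays, and the fall was 0.66 (SE 0.22, adjusted p = 0.0169). The call was lost without obese sham array 3 (adjusted p = 0.0564) or obese 70% array 4 (adjusted p = 0.0525). The 3 other resections gave 0.37, -0.41 and -0.38 after lean 70%, lean 80% and obese 80%, with adjusted p from 0.123 to 0.183.

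Timd4, a receptor for phosphatidylserine on dying cells that marks Kupffer cells of embryonic origin, rose after lean 70%. The lean values were log2 6.72, 6.70, 6.92 and 6.34 after sham surgery, 7.24, 7.64, 7.61 and 6.28 after 70%, and 6.44, 6.56, 6.40 and 6.76 after 80%. The obese values were 6.42, 6.05, 6.43 and 6.14 after sham surgery, 6.11, 5.96, 5.97 and 5.81 after 70%, and 6.08, 6.33, 6.27 and 5.98 after 80%. Arrays 1 to 3 of the lean 70% group lay above every other array of the series, and array 4 below every lean sham array. The rise after lean 70% was 0.52 (SE 0.20, adjusted p = 0.0333), lost without lean sham array 2 or 4 or lean 70% array 1, 2 or 3 (adjusted p from 0.0539 to 0.143), and the differences after the other resections ran from -0.30 to -0.10 and did not pass.

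Mpeg1, a pore-forming protein of macrophages that damages engulfed bacteria, also rose after lean 70%. It read log2 10.77, 10.26, 10.11 and 9.80 after lean sham surgery, 11.12, 11.33, 11.26 and 10.04 after lean 70%, and 9.42, 9.59, 9.69 and 10.37 after lean 80%. In obese mice it read 9.71, 9.54, 10.20 and 10.02 after sham surgery, 9.97, 10.30, 9.75 and 9.44 after 70%, and 10.37, 9.98, 9.83 and 10.37 after 80%. The rise after lean 70% was 0.71 (SE 0.26, adjusted p = 0.0281), lost without lean sham array 3 or 4 or lean 70% array 1, 2 or 3 (adjusted p from 0.0639 to 0.104), and lean 80% gave -0.46 (adjusted p = 0.136). The obese resections gave differences of 0.00 and 0.27, with all 3 obese groups overlapping.

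Clec4f, a galactose-binding lectin that in mice is found on Kupffer cells, and Folr2, the folate receptor of resident macrophages, had no called change after resection on their brightest probes. Clec4f read log2 9.39, 9.55, 9.61 and 9.06 after lean sham surgery, 9.56, 9.92, 10.02 and 8.84 after lean 70%, and 9.03, 9.16, 8.84 and 9.10 after lean 80%, while the obese arrays lay between 8.65 and 9.28. Folr2 read 7.48, 7.65, 7.70 and 6.70 after lean sham surgery, 7.75, 8.50, 8.20 and 6.69 after lean 70%, and 6.61, 7.08, 6.84 and 6.73 after lean 80%, while the obese arrays lay between 6.32 and 7.31. In both genes the fourth lean sham array and the fourth lean 70% array were the lowest of their groups. The differences from sham ran from -0.37 to 0.18 for Clec4f (adjusted p from 0.0986 to 0.822) and from -0.57 to 0.40 for Folr2 (adjusted p from 0.0698 to 0.586). The second Clec4f probe disagreed with the first. It rose by 0.83 after lean 70% (adjusted p = 0.000192), by 0.62 after lean 80% (adjusted p = 0.00263) and by 0.40 after obese 70% (adjusted p = 0.0496), so the direction for Clec4f depends on the probe. The cause of the disagreement was not tested. The second probes of Folr2 and Adgre1 gave the same signs as the first in all 4 resections, and both passed after lean 80% (Folr2 -0.79, adjusted p = 0.0326; Adgre1 -0.63, adjusted p = 0.0441).

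**Figure D1:**
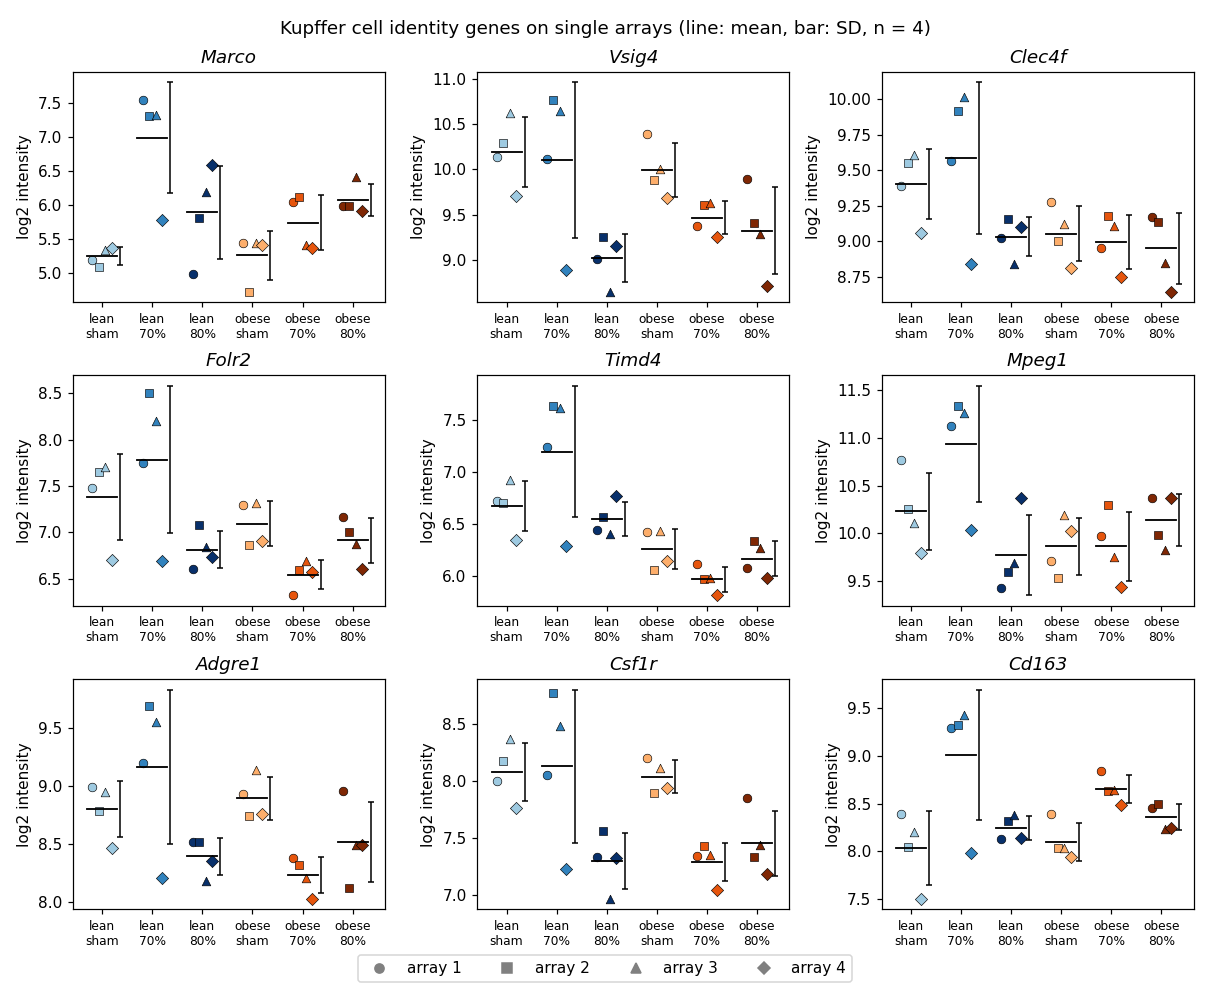
Log2 intensity (y axis) of the 9 tested genes on each of 24 arrays, by diet and surgery (x axis). Each marker shape is an array number, horizontal lines are group means and bars are SDs (n = 4). In every panel the diamond of lean 70%, array 4, lies below the other 3 arrays of its group.

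The promoters of 4 members are printed because they stand for the largest rise and the largest fall (Marco and Vsig4) and for a lectin and a scavenger receptor of Kupffer cells (Clec4f and Timd4). They span 250 bases before to 50 after the transcript start, 5′ to 3′, from RefSeq on GRCm38.p6. The search covered 9 promoters of 8 of the 10 members, and none of Adgre1 or Csf1r. Capitals mark exact matches, on either strand, to the PU.1 core GAGGAA, the nuclear receptor half-site AGGTCA, the RBPJ core TGGGAA and the AP-1 motif TGANTCA, with 0 bases shared between matches.
Marco, chr1:120504975-120505274, minus strand: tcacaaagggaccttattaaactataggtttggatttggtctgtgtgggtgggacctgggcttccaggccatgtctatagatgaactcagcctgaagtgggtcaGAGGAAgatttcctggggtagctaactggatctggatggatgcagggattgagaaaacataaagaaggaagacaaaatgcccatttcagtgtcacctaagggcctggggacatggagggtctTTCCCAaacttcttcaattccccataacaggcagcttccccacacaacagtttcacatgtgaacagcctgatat
Vsig4, chrX:96293389-96293688, minus strand: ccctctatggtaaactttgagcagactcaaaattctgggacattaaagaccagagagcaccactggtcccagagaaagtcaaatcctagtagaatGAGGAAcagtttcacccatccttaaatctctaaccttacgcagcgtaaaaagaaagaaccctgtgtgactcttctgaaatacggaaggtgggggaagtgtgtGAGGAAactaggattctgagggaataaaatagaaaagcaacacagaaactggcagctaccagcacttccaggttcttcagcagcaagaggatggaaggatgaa
Clec4f, chr6:83656067-83656366, minus strand: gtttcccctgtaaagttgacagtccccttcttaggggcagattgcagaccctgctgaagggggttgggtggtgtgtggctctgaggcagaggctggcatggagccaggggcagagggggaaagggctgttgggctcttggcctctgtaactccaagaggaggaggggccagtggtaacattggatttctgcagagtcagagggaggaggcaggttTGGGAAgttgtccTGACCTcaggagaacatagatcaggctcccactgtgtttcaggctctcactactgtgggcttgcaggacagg
Timd4, chr11:46810549-46810848, plus strand: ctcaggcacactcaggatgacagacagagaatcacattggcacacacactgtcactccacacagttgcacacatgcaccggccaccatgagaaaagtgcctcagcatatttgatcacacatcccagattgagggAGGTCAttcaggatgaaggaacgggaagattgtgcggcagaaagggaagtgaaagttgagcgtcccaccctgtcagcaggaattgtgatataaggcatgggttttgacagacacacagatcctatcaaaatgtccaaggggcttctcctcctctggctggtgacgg

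PU.1 and the liver X receptor are transcription factors of macrophages, and RBPJ carries Notch signals, which is why these motifs were searched. The PU.1 core was found in 3 of the 9 member promoters searched, against 28.3% of the 32851 promoters of the same length that were searched. The RBPJ core was in 2 of 9 (25.6% of the promoters searched), the nuclear receptor half-site in 2 (16.3%) and the AP-1 motif in 1 (7.81%). Counted from the transcript start, the Marco promoter holds the PU.1 core at -146 and the RBPJ core at -24. Vsig4 has the PU.1 core at -155 and -53, Clec4f the RBPJ core at -35 and the nuclear receptor half-site at -22, and Timd4 the nuclear receptor half-site at -116. The promoters of Mpeg1 and Cd163 and 1 of the 2 Folr2 promoters held 0 of these motifs. These matches describe the letters of the windows.

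Against lean sham, the 70% resection raised 4 of the 9 tested genes (Marco, Cd163, Mpeg1 and Timd4) and lowered 0. Over all genes 21.5% were called higher and 26.2% lower. The median difference of the 9 was 0.40, against -0.03 for all genes, and 8 of 9 differences were positive. Without lean 70% array 4 the count was 7, with Folr2 at 0.77 (adjusted p = 0.00381), Adgre1 at 0.68 (adjusted p = 0.00171) and Clec4f at 0.43 (adjusted p = 0.0263) added, while Vsig4 (0.32, adjusted p = 0.287) and Csf1r (0.36, adjusted p = 0.105) still did not pass. Leaving out lean 70% array 4, the lowest of its group in all 9 genes, had to raise these differences. Without lean sham array 4, or without any of lean 70% arrays 1, 2 or 3, the count was 2. With slide as a fixed term Marco (1.40, adjusted p = 0.0467) and Cd163 (1.21, adjusted p = 0.031) kept their calls and Timd4 (0.47, adjusted p = 0.392) and Mpeg1 (0.22, adjusted p = 0.772) lost them.

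The 80% resection in lean mice lowered Vsig4 and Csf1r and raised 0 of 9, where 31.0% of all genes were called lower and 23.9% higher. The median difference was -0.41, against -0.06 for all genes. The count was 4 without lean sham array 4 and 6 without lean 70% array 4, an array outside this comparison that acts through the spread shared by all groups.

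In obese mice the 70% resection lowered Csf1r and Adgre1 and raised Cd163, where 24.6% of all genes were called lower and 22.2% higher. The median difference was -0.30, against -0.02 for all genes. Leaving out obese sham array 3 left 1 call, and leaving out lean 70% array 4 gave 5.

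The 80% resection in obese mice raised Marco and lowered Csf1r, where 24.1% of all genes were called higher and 28.7% lower. The median difference was -0.10, against -0.04 for all genes. Leaving out obese 80% array 3 left 0 calls, leaving out any of obese sham arrays 1, 2 and 3 or obese 80% arrays 2 and 4 left 1, and leaving out lean 70% array 4 gave 4. With 21.5% to 31.0% of all genes called each way in these 4 comparisons, these counts of members were read as no result about them.

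**Figure D2:**
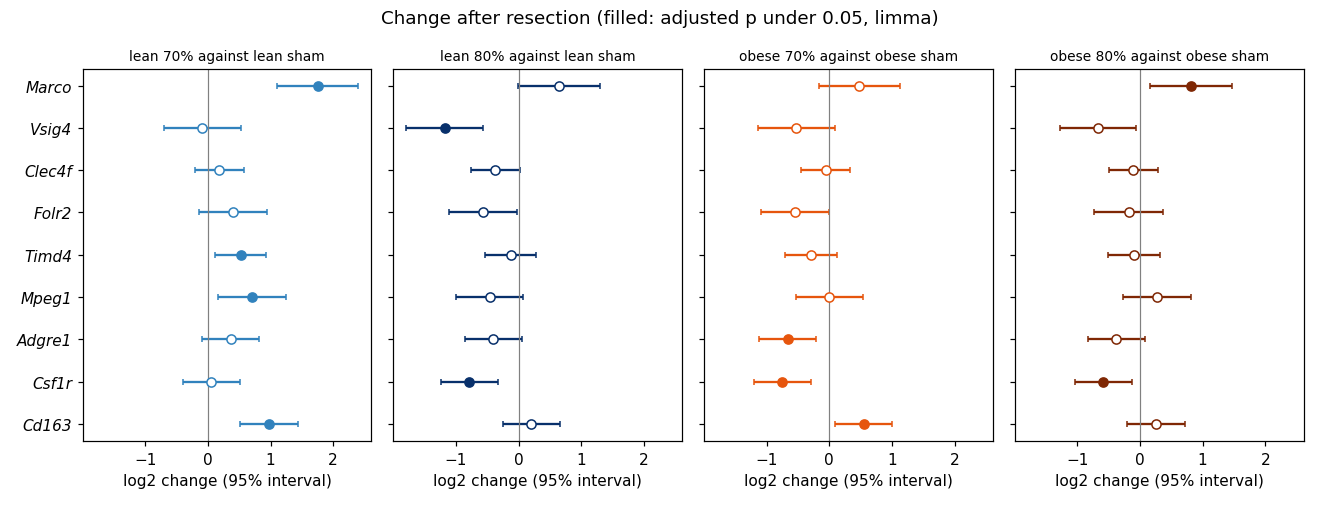
Log2 change from the sham group of the same diet (x axis) for 9 genes (y axis) after each resection, with 95% intervals from limma and filled points where the adjusted p was under 0.05. Marco and Cd163 lie to the right of Csf1r in all 4 panels.

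Marco and Cd163 were set against Csf1r on the same array, a comparison chosen after the values were seen, since an equal change of both genes leaves their difference on an array where it was. The difference Marco minus Csf1r ran from -3.09 to -2.40 on lean sham arrays, from -1.46 to -0.50 after lean 70% and from -2.35 to -0.74 after lean 80%. On obese arrays it ran from -3.18 to -2.53 after sham surgery, from -1.95 to -1.29 after 70% and from -1.87 to -1.02 after 80%. No resected group overlapped with its sham group. The mean difference moved by 1.70, 1.43, 1.23 and 1.40 after lean 70%, lean 80%, obese 70% and obese 80%.

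Cd163 minus Csf1r ran from -0.26 to 0.40 on lean sham arrays, from 0.56 to 1.25 after lean 70% and from 0.76 to 1.42 after lean 80%. On obese arrays it ran from -0.08 to 0.19 after sham surgery, from 1.21 to 1.5 after 70% and from 0.61 to 1.16 after 80%. The shifts were 0.92, 0.99, 1.30 and 0.84, again with no overlap. These shifts are a description with no test, since the 3 genes were picked for how they moved, and resections of 1 diet share their sham arrays. Lean 70% array 4 was within its group here, since without it the shifts after lean 70% were 1.80 for Marco and 0.96 for Cd163. On the authors' deposited log2 values, which have no background correction, the Marco shift was smaller, at 1.00 after lean 70%, 0.98 after lean 80%, 0.84 after obese 70% and 0.89 after obese 80%.

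**Figure D3:**
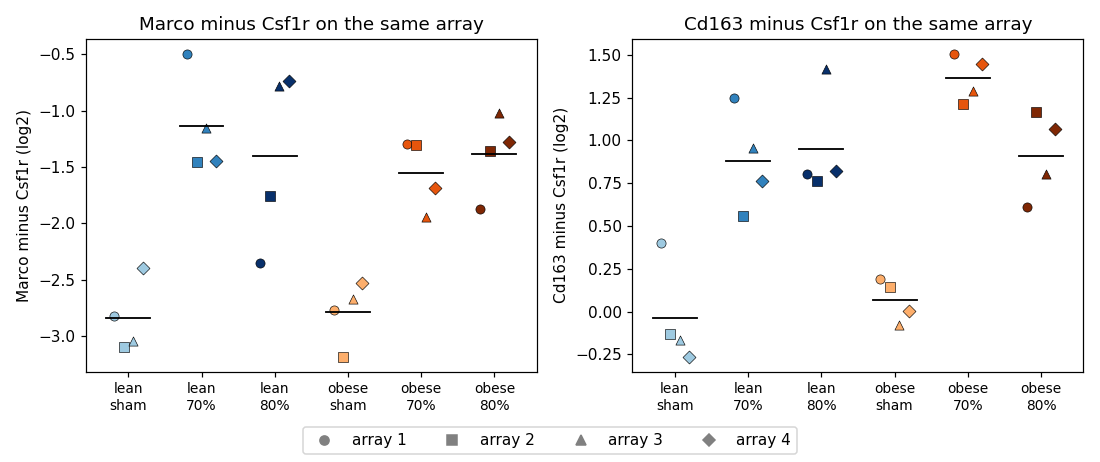
Log2 difference of Marco (left) and Cd163 (right) from Csf1r on the same array (y axis) for the 6 groups of 4 arrays (x axis), with lines at group means. All resected arrays of a diet lie above the sham arrays of that diet in both panels.

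Lean 70% array 4 was the lowest of its group in 9 of 9 tested genes, whereas 32.9% of all 10765 genes were lowest on it. The mean of the other 3 arrays exceeded it by a median of 1.27 over the 9 genes, from 0.99 for Clec4f to 1.63 for Vsig4, against 0.02 over all genes. In 6 of the 9 genes it lay below all lean sham arrays. The 3 other arrays all lay above the lean sham range in 6 of 9. The within-group SD of the 9 genes had a median of 0.67 in the lean 70% group and of 0.17 to 0.26 in the other groups, while the median over all genes was 0.14 to 0.20 in the 6 groups. The limma SE takes a single spread per gene for all groups. Comparisons with lean 70% therefore have SEs and p-values that are too small for its spread. The fourth array was also the lowest in 8 of 9 genes in the lean sham group and in 8 of 9 in the obese 70% group. It was the lowest in 6 of 9 in the obese 80% group, 3 in the obese sham group and 0 in the lean 80% group.

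Other lists moved with that array. The 32 other Kupffer cell and macrophage genes that were tested had a mean log2 of 7.39 on it, against 7.84, 8.08 and 8.05 on arrays 1 to 3. The 12 sinusoidal endothelial markers had 8.0 against 8.16, 8.31 and 8.31, and the 7 neutrophil markers 6.39 against 6.48, 7.32 and 7.15. The 10 hepatocyte markers had 12.35 against 12.23, 12.35 and 12.32. The array was thus at the bottom of its group in 6 of 11 other lists, but not in the hepatocyte list. What part cell content, tissue sampling or RNA quality had in these values was not tested.

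**Figure D4:**
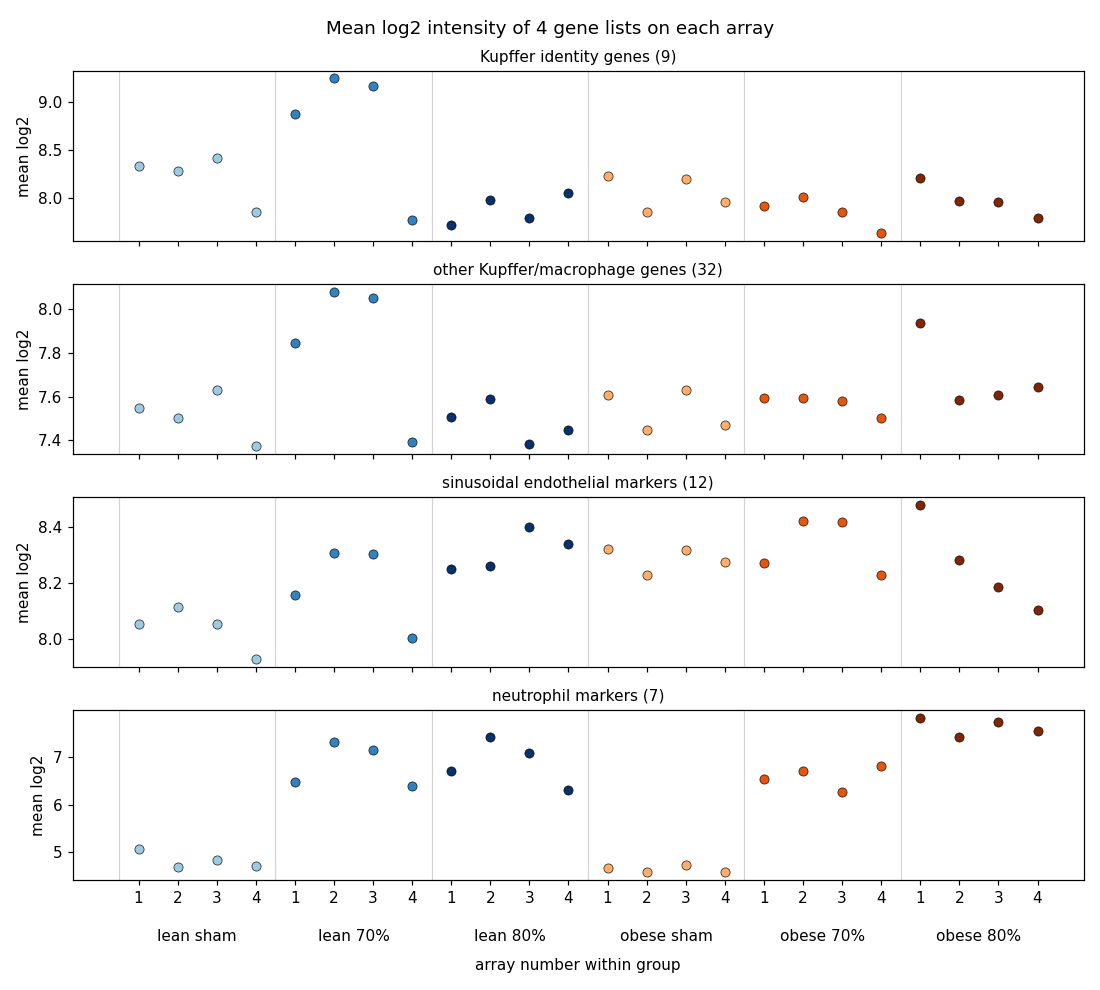
Mean log2 intensity (y axes, different scales) of 4 gene lists on each array, by group and array number (x axis). Lean 70% array 4 lies at the bottom of its group in all 4 panels.

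The 80% resection gave lower values than the 70% resection in lean mice for all 9 tested genes, where 9.61% of all genes were called lower. The median difference was -0.84, against -0.01 for all genes. Mpeg1 was lower by log2 1.17 (adjusted p = 0.00408) and Vsig4 by 1.09 (adjusted p = 0.0148), and Clec4f, with the smallest difference, gave -0.55 (adjusted p = 0.0457). The second Clec4f probe gave -0.21 (adjusted p = 0.402). All 9 calls held without lean 70% array 4, with Marco at -1.51 and Vsig4 at -1.5. Since that array was the lowest of its group in all 9 genes, leaving it out had to enlarge these differences. The count was 5 without lean 70% array 1 and 1 without array 2 or array 3. With slide as a random block 1 call was left, Mpeg1, and the other 8 had adjusted p from 0.0502 to 0.114. In obese mice 0 of 9 differed between 80% and 70%, with differences from -0.29 for Cd163 (adjusted p = 0.469) to 0.37 for Folr2 (adjusted p = 0.434), where 7.87% of all genes were called in either direction.

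Obese mice had lower values than lean mice after the 70% resection in 7 of 9 genes, where 13.7% of all genes were called lower. The median difference was -0.93, against 0.03 for all genes. Marco (-1.26, SE 0.32, adjusted p = 0.00414), Folr2 (-1.24, SE 0.26, adjusted p = 0.00105) and Timd4 (-1.23, SE 0.20, adjusted p = 7.27e-05) differed most. The SDs in lean 70% and obese 70% were 0.816 and 0.405 for Marco, 0.795 and 0.156 for Folr2, and 0.632 and 0.122 for Timd4. The SE pools all 6 groups, so it and the p-values are too small for the lean 70% spread. Vsig4 (-0.64, adjusted p = 0.103) and Cd163 (-0.36, adjusted p = 0.227) did not pass. Without lean 70% array 4 all 9 passed, Vsig4 at -1.05 and Cd163 at -0.70. That array was the lowest of its group in all 9, so each difference had to grow without it. Without lean 70% array 2 the count was 6. The Clec4f call was lost on leaving out any 1 of 3 arrays, and its smallest difference was -0.45, without lean 70% array 3.

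After sham surgery 0 of 9 genes differed between the diets, where 12.2% of all genes were called in either direction. Differences ran from -0.41 for Timd4 (adjusted p = 0.204) to 0.09 for Adgre1 (adjusted p = 0.853), and Timd4 passed without lean 70% array 4 (adjusted p = 0.0382). On the slide that held both sham groups, with 2 obese and 4 lean arrays, the differences ran from -0.61 for Mpeg1 to 0.18 for Cd163. After the 80% resection 0 of 9 differed on their brightest probes, where 23.0% of all genes were called. Differences ran from -0.38 for Timd4 (adjusted p = 0.184) to 0.37 for Mpeg1 (adjusted p = 0.334), and Timd4 passed without lean 70% array 4 (adjusted p = 0.0365). On the slide that held both 80% groups, with 4 obese and 2 lean arrays, they ran from -0.42 for Timd4 to 0.42 for Vsig4. The second Clec4f probe was lower in obese mice after 80% (-0.51, adjusted p = 0.0298, limma), against -0.08 on the brightest.

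The test of whether diet altered the response to the 70% resection passed for 3 of 9 genes, all with a lower response in obese mice, where 8.31% of all genes were called lower. These were Marco (-1.27, SE 0.45, adjusted p = 0.0496), Adgre1 (-1.02, SE 0.31, adjusted p = 0.025) and Timd4 (-0.82, SE 0.28, adjusted p = 0.045). Adgre1 had 0.37 in lean and -0.66 in obese mice, and Timd4 0.52 and -0.30. Without lean 70% array 4, the lowest of its group in all 9 genes, each interaction value had to move down. The count was 7 without lean 70% array 4, and 0 without any of lean sham array 4, lean 70% arrays 2 or 3, or obese sham array 3. It was 1 without any of lean sham arrays 1 or 2, lean 70% array 1, lean 80% array 2, obese sham arrays 1 or 4, obese 70% arrays 3 or 4, or obese 80% arrays 1 or 3. Some stellate cell markers were also called lower in this interaction, though Lrat was detected on 1 of 24 arrays and not tested. Of 10 tested, 4 were called lower in this interaction and 0 higher, with a median of -0.26, and 6 rose after lean 70% (median 0.51) against 3 after obese 70% (median 0.03), where 1 fell. Over all genes 21.5% were called higher after lean 70%, and 22.2% higher and 24.6% lower after obese 70%. The mean log2 of the stellate markers ran from 7.14 to 7.30 on lean sham arrays, from 7.56 to 7.99 after lean 70%, from 7.37 to 7.55 on obese sham arrays and from 7.51 to 7.72 after obese 70%. In other comparisons these markers and the members differed. In the interaction of diet with the 80% resection the stellate median was -0.48, against 0.20 for the members. For 80% against 70% in lean mice it was 0.002, against -0.84 for the members. The part of stellate cells in the members' values was not tested. For the 80% resection the count was 0 of 9, where 11.1% of all genes were called in either direction. Those differences ran from 0.03 for Adgre1 (adjusted p = 0.97) to 0.74 for Mpeg1 (adjusted p = 0.211).

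**Figure D5:**
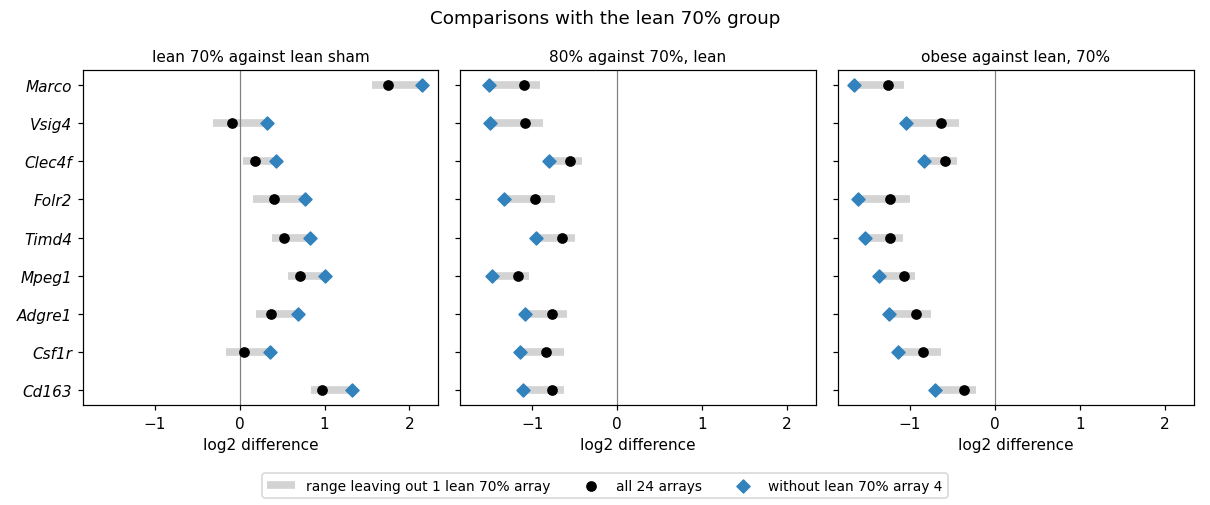
Log2 difference (x axis) of 9 genes (y axis) in the 3 comparisons of the lean 70% group with another group. Points are over all arrays (black) and without lean 70% array 4 (blue). Grey bars show the range on leaving out each lean 70% array in turn. Array 4 was the lowest of its group in all 9 genes. Leaving it out therefore had to move all 9 farther from 0 against lean 80% and against obese 70%.

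By mean level, lean 70% stood first of the 6 groups for 8 genes and second for Vsig4, for which lean sham stood first. The last place went to obese 70% for Folr2, Timd4, Adgre1 and Csf1r, to lean 80% for Vsig4 and Mpeg1, to obese 80% for Clec4f and to lean sham for Marco and Cd163. Neighbours in these orders overlapped in single arrays in every gene but for a gap between obese sham and the next lower resected group in Vsig4 and Csf1r.

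The genes whose course over the 24 arrays lay closest to the mean course of the 9 members included the 3 chains of the complement starter C1q. After centring each gene on its mean, C1qc deviated from that course by a root mean square of log2 0.17, C1qa by 0.20 and C1qb by 0.20, against a median of 0.51 over all genes. Cfp, the complement protein properdin, followed at 0.21, then Tmem176b (0.22), Ckb (0.22), Col8a1 (0.23), Axl (0.23), Sdc3 (0.23) and Bok (0.23). Of the members, Clec4f lay closest to the course at 0.17, and Marco was farthest at 0.55. A gene with equal values on all arrays would deviate by 0.42, less than Marco or the median of all genes. All genes share the same arrays, and without lean 70% array 4 the 10 closest genes shared 5 with this list.

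Among the 32 other Kupffer cell and macrophage genes, 12 rose and 4 fell after lean 70%, 8 rose and 8 fell after lean 80%, 5 rose and 5 fell after obese 70%, and 10 rose and 6 fell after obese 80%. Over all genes 21.5%, 23.9%, 22.2% and 24.1% were called higher and 26.2%, 31.0%, 24.6% and 28.7% lower in that order, so the counts were read as no result about this list. The haem-degrading enzyme Hmox1 rose by 3.86, 2.56, 1.69 and 2.35 in that order, and the iron exporter Slc40a1 gave -1.49, -2.33, -1.38 and -1.49, each with an adjusted p under 0.05. The following genes were also called in all 4 resections. The transcription regulator Id3 rose by 0.66, 1.29, 1.87 and 1.56, and Vcam1, an adhesion molecule, by 1.51, 1.04, 0.63 and 0.71. Nr1h3, the liver X receptor alpha, fell by 1.32, 1.41, 0.88 and 1.27, and Hpgd, which degrades prostaglandins, by 1.13, 1.01, 1.03 and 1.15. Hepatocytes and endothelial cells express several of these genes too. The medians of the 32 were 0.32, -0.06, 0.02 and 0.14, against -0.03, -0.06, -0.02 and -0.04 for all genes. Against lean 70%, 10 of the 32 were lower and 1 higher after lean 80%, where 9.61% of all genes were called lower. After obese 70%, 11 were lower and 2 higher than after lean 70%, where 13.7% of all genes were called lower.

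A further list held the CSF1 receptor's ligands Csf1 and Il34, the granulocyte growth factors Csf2 (detected on 0 arrays) and Csf3 (not called after any resection), and genes of haem and iron handling. Csf1 rose by 0.76 after obese 80% (adjusted p = 0.000728), from an obese sham group in which it was detected on 1 of 4 arrays. Il34 passed after lean 80% (adjusted p = 0.0203), but it was detected on 0 lean sham arrays and 2 of 4 lean 80% arrays, so no fold is given. Ftl1, the ferritin light chain, rose by 0.51 after lean 70% (adjusted p = 0.00123), but gave -0.10 with slide as a fixed term, and fell by 0.33 after obese 70% (adjusted p = 0.0301), but gave 0.04 under upper-quartile scaling. Blvrb, a biliverdin reductase, gave -0.57 after lean 70%, -0.59 after obese 70% and -0.36 after obese 80%, each with an adjusted p under 0.05. Of the 8 tested genes of that list, 1, 1, 2 and 3 rose and 1, 0, 2 and 1 fell, in the order of resections above. Over all genes 21.5% to 24.1% were called higher and 24.6% to 31.0% lower, so these counts were read as no result about the list.

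Markers of incoming myeloid cells moved with resection in both diets. Of 7 tested neutrophil markers, 6, 6, 6 and 7 rose, among them S100a8 by log2 4.42, 4.2, 4.36 and 5.93. S100a9 was not well above background on any obese sham array and was at least 14.3-fold higher after obese 70% (adjusted p = 4.43e-10) and at least 45.3-fold higher after obese 80% (adjusted p = 8.42e-13). Such a bound sets the resected mean against the lowest signal detected on each sham array, or the probe's own value where that is higher. Their mean log2 lay between 4.58 and 5.08 on sham arrays and between 6.27 and 7.82 on resected arrays. Of 6 tested monocyte markers, 3, 4, 4 and 5 rose and 0, 0, 1 and 1 fell, among them Chil3. It was not well above background on any lean sham array and was at least 3.27-fold higher after lean 70% (adjusted p = 2.55e-06) and at least 3.41-fold higher after lean 80% (adjusted p = 1.31e-06). In obese mice, where 1 of 4 sham arrays detected it, it rose by log2 1.71 and 3.04. The mean log2 of the monocyte markers lay between 5.96 and 6.18 on sham arrays and between 6.62 and 7.44 after resection. The defining markers Ccr2, Itgam, Ms4a4c and Ngp were detected on 0 of 24 arrays. Of 8 genes of lipid-associated macrophages, 6, 4, 5 and 6 rose, among them Cd63 by 1.49, 1.33, 1.47 and 2.74, and 0, 1, 0 and 0 fell. Gpnmb, detected on 0 lean sham arrays, passed after lean 70% (adjusted p = 0.0484, limma) but not after lean 80% (adjusted p = 0.846). The part of incoming cells in the members' values was not tested.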

How the data were processed

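Total liver RNA was labelled and hybridised to Illumina arrays, per the labels. The deposited table holds linear intensity per probe and array, not normalized, and a detection score, a fraction from 0 to 1 that the file headers name a p-value although it rises with brightness; 1 minus it was used as detection p. The authors' deposited log2 values were recomputed by quantile normalization and centring on probe medians (largest difference 0.000847). The steps before deposit are otherwise not given in the sources used here. Intensities were corrected with normexp from the detection p (limma 3.58.1, R 4.3.3, offset 16), quantile-normalized and put on log2. The probe with the highest mean represents a gene. One limma model over 24 arrays (18 residual degrees of freedom) gave 11 two-sided contrasts, with Benjamini-Hochberg adjustment over 10765 genes. The script was tested on simulated data. Replicate numbers were not taken to pair arrays: over all genes, 6 of 60 same-number pairs had correlated deviations over 0.1 (median 0.0105). In the members the fourth array was often the lowest of its group, as given above. Whether arrays of the same number share a factor in these genes was not tested. Named genes are all members, up to 4 called genes with the largest change per other list and comparison, and the 10 genes closest in course. Members and lists were chosen with earlier results of these data known. A further motif that was searched is not reported here. Motif letters and the set against Csf1r were chosen after seeing data.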

Additional observations from a re-analysis of the deposited data

Results flagged for a closer look

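Single arrays stood apart from the other 3 of their group, by Dixon's test at the 95% level, in 5 of 54 combinations of gene and group; chance flags about 1 in 20. Lean 70% array 4 was low in Marco (log2 5.78, others 7.31 to 7.55), Mpeg1 (10.04, others 11.12 to 11.33) and Cd163 (7.99, others 9.30 to 9.43). Obese sham array 2, on which Marco was not detected, read 4.72 in Marco (others 5.41 to 5.44). Obese 80% array 3 was high in Marco (6.41, others 5.91 to 5.98).

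The response to the 70% resection differed between the diets, by the interaction term of limma, for Marco (-1.27, obese minus lean), Timd4 (-0.818) and Adgre1 (-1.02), and each depends on the arrays left in.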

How the results depend on the processing

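The counts of members called kept within 1.5 times under most settings, with these exceptions. On the authors' deposited log2 values, and with an offset of 50, obese 80% against sham had 1 call. Without the detection filter, which tests more genes, the counts were 2 for lean 70% against sham, 0 for obese 80% against sham and 1 for the interaction of diet with 70% resection. With slide as a random block (correlation 0.128) they were 2 for lean 70% against sham, 0 for obese 80% against sham, 1 between the 2 resections in lean mice and 0 for that interaction. Slide as a fixed term could be fitted for 5 comparisons, and gave 2 calls for lean 70% against sham. Array weights gave 1 call for obese against lean sham mice and 6 for the interaction. The replicate block gave 4 calls for lean 80% against sham, and moved no other count by over 1.5 times; 7 of 24 arrays correlated best with their own number. Leaving out 1 array at a time gave 2 to 7 calls for lean 70% against sham, 2 to 6 for lean 80%, 1 to 5 for obese 70%, 0 to 4 for obese 80%, 0 to 1 for obese against lean sham mice and the same for 80% resections, 1 to 9 between the 2 resections in lean mice, and 0 to 7 for that interaction. Each of these highest counts came without lean 70% array 4, though the 9 also came with it in.

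Among the genes named here, Ftl1 changed sign from a value that had passed, and the other changes of sign were of values that had not. Csf1r after lean 70% became -0.0124 under upper-quartile scaling, and ran from -0.16 to 0.355 on leaving out arrays. Vsig4 after lean 70% became 0.204 with slide fixed and 0.0878 with array weights, and ran from -0.309 to 0.318. Clec4f, with its probes averaged, became 0.124 after lean 80%, 0.17 after obese 70% and 0.142 after obese 80%, and ran from -0.138 to 0.0246 after obese 70% on leaving out arrays. Mpeg1 after obese 70% ran from -0.144 to 0.142, the diet difference of Adgre1 from -0.017 to 0.16 after sham surgery, and its interaction with the 80% resection from -0.12 to 0.159. Ftl1 became 0.0446 after obese 70% under upper-quartile scaling and -0.0991 after lean 70% with slide fixed. The cause was not tested unless named. Upper-quartile scaling moved the median of all genes by at most 0.0683. Signal near the detection floor limits Marco, and 4 arrays per group limit every test.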
